A study of Mus musculus with 24 samples.

Results

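Skeletal muscle contractile and metabolic genes were followed in 24 mouse tumours as a set of 45 genes of the 55414 in the count table, chosen by gene symbol. The set holds 9 genes of the thin filament, 8 of the thick filament, 2 developmental myosins, 10 of the Z-disc and sarcomere scaffold, 7 of excitation-contraction coupling, 6 of energy metabolism and 3 myogenic regulators, and all 45 were found. The tumours were D4M, a mouse melanoma line, grown in mice labelled C57BL/6 WT, with 6 tumours in each of 4 treatments given by intraperitoneal injection. BRQ+PD-1 tumours received BRQ (brequinar, an inhibitor of the pyrimidine synthesis enzyme DHODH) with an anti-PD1 antibody, which blocks an inhibitory receptor of T cells. BRQ+IgG2a tumours received BRQ with the antibody IgG2a, PD-1 tumours received the anti-PD1 antibody without BRQ, and IgG2a tumours, the controls, received IgG2a without BRQ. All 4 groups thus carried the same tumour line and an injected antibody. The sources used here do not give the age of the mice, the site of the tumours or how much surrounding tissue was taken with them.

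Skeletal muscle fibres contract when calcium from the sarcoplasmic reticulum binds troponin on the actin thin filament and lets myosin heads of the thick filament pull on it. Adult fibres are fast or slow according to the myosin and troponin genes they use, with Myh4, Myh1 and Myh2 in fast fibres and Myh7 in slow ones. New fibres, in the embryo or after injury, pass through a stage in which satellite cells marked by Pax7 give rise to myoblasts that switch on Myod1 and Myog, fuse, and use the embryonic and perinatal myosins Myh3 and Myh8.

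The regulatory sequences of 4 genes on which the results turn are shown here because each stands for 1 class: Acta1 for the adult thin filament, Myh4 for the adult fast thick filament, Myh3 for the developmental myosins and Myog for the myogenic regulators. Each run is the 250 bases before the gene's start, 5′ to 3′ on the gene's own strand, from RefSeq on build GRCm38.p6. Capitals mark exact matches to 4 motifs searched on both strands. These were TATAAA, the E-box CANNTG (N is any base), the CArG box of serum response factor, CCWWWWWWGG, and the site of MEF2, YTAWWWWTAR. W is A or T, Y is C or T and R is A or G.
Acta1 (chr8:123894776-123895025, minus strand): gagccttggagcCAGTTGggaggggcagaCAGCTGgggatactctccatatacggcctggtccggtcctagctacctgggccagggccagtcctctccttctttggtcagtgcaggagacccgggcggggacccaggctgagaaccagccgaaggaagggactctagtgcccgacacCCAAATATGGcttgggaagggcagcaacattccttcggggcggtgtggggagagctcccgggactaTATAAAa
Myh4 (chr11:67237562-67237811, plus strand): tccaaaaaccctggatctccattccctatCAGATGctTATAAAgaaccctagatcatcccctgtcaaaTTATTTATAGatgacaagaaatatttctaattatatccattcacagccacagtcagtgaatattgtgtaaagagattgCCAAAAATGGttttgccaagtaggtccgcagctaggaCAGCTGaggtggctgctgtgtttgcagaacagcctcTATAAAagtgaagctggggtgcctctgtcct
Myh3 (chr11:67078050-67078299, plus strand): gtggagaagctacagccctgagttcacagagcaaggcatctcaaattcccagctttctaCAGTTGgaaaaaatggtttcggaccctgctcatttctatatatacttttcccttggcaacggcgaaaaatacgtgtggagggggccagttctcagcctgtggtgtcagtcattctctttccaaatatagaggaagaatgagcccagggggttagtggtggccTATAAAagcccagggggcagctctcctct
Myog (chr1:134289754-134290003, plus strand): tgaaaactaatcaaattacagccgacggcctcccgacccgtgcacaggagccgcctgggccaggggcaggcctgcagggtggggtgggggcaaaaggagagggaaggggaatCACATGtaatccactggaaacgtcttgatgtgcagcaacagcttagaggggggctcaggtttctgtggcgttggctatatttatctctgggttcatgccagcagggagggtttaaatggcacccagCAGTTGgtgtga

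The Acta1 run holds a CArG box and a TATAAA, and the Myh4 run holds both of these and a MEF2 site. The Myh3 and Myog runs hold no exact match to the CArG box or MEF2 pattern. Near matches were not marked. The Myog run holds ctatatttat and the Myh3 run ctatatatac, which each differ from the MEF2 pattern only at the last base. RefSeq promoters (300 bases around the start) were found for 32 of the 45 genes, 39 promoters in all. A CArG box lay in 6 of the 39 (15.4%), against 1.47% of all 32851 promoters in the table. A MEF2 site lay in 15.4% of the 39 and in 2.92% of all, TATAAA in 20.5% and 12.37%, and CANNTG in 82.1% and 66.22%. These are matches of letters and not measured binding.

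Library totals ran from 19106205 to 34282319 counts, and 3 counts corresponded to 0.0875 to 0.157 CPM (counts per 1000000 counts of the library). Of 10 melanocytic and neural crest markers, 2 (Tyr and Dct, both pigment enzymes) were at 0 in every tumour. Tyrp1 and Mlana were at most 0.0707 and 0.172 CPM. Sox10, Pmel, Ngfr, S100b and Erbb3 reached at most 4.39 CPM. Only Mitf, the master regulator of the lineage, was higher, at 11.6 to 48.2 CPM. The labels do not say that the tumours came from separate mice, so p-values measure the spread between these samples. In bulk tumour RNA, fewer muscle cells and less muscle RNA per cell cannot be told apart.

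Muscle RNA stood out in 4 of the 24 tumours, 1 BRQ+IgG2a tumour (replicate 4), 1 PD-1 tumour (replicate 6) and 2 IgG2a tumours (replicates 2 and 3). The 45 genes took 2.22% of all counts in BRQ+IgG2a replicate 4, 1.66% in PD-1 replicate 6, 2.48% in IgG2a replicate 2 and 5.71% in IgG2a replicate 3. In the other 20 tumours they took 0.00411 to 0.205%, with the upper values in BRQ+IgG2a replicate 1 (0.205%), BRQ+PD-1 replicate 2 (0.107%) and PD-1 replicate 2 (0.1%). The lowest, median and highest shares were 0.00486, 0.0109 and 0.107% in BRQ+PD-1 tumours, 0.00411, 0.0157 and 2.22% in BRQ+IgG2a tumours, 0.00574, 0.0136 and 1.66% in PD-1 tumours, and 0.00591, 0.03 and 5.71% in IgG2a tumours. The groups overlapped, and BRQ+PD-1 was the group with no tumour above 0.107%. Wilson 95% intervals of these shares, which cover counting error only, were narrow beside the differences between tumours (2.22 to 2.23% in BRQ+IgG2a replicate 4). The 4 tumours are set apart here by the same genes that are described, so their high levels are a description with no test.

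**Figure D1:**
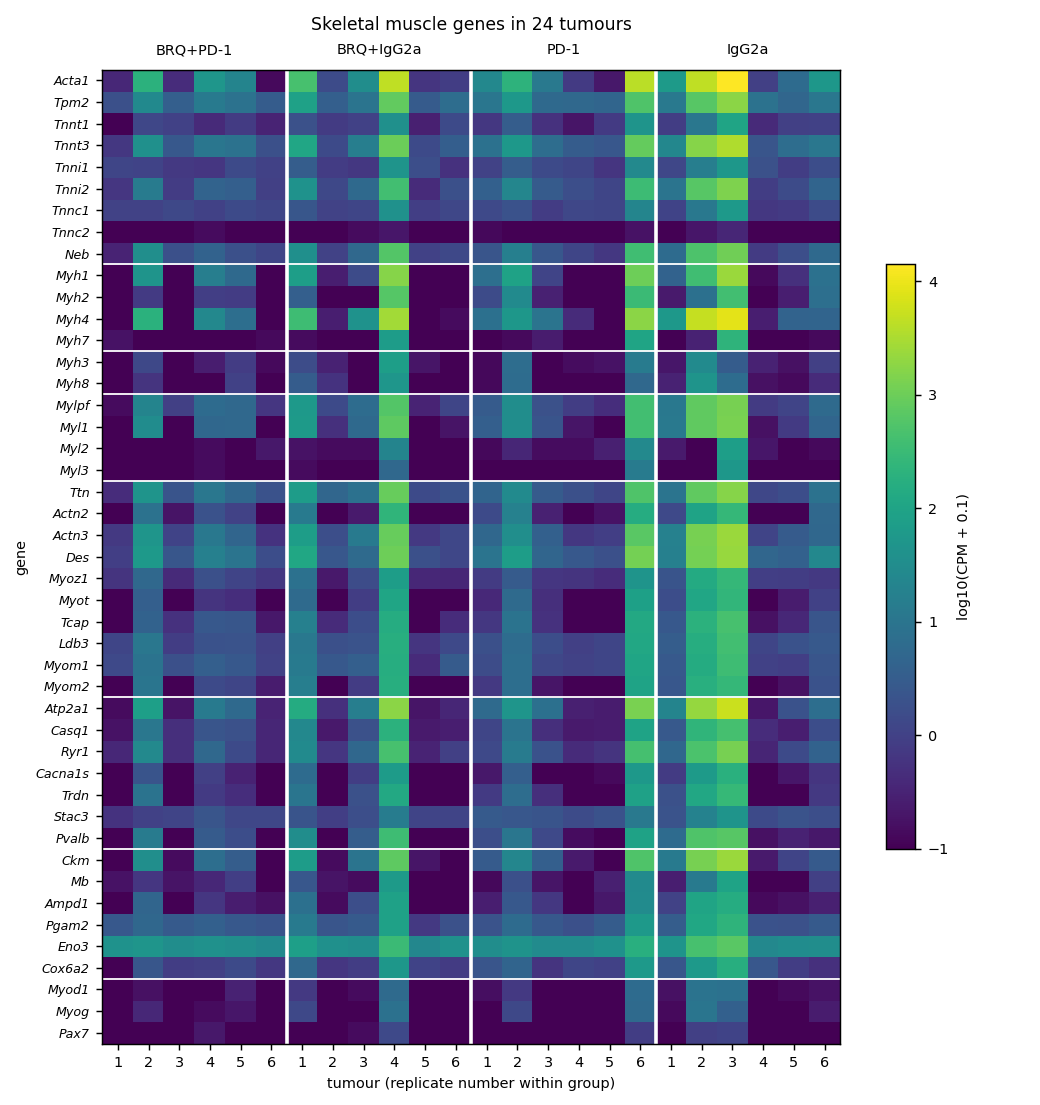
Level of each of the 45 genes (rows, by role from thin filament at the top to myogenic regulators at the bottom) in each tumour (columns, by group and replicate), coloured by log10(CPM + 0.1). BRQ+IgG2a replicate 4, PD-1 replicate 6 and IgG2a replicates 2 and 3 form the brightest columns and hold the 4 highest levels of 40 of the 45 genes. Tnnc2 is dark in these columns too, and Eno3 is bright in every tumour.

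In 40 of the 45 genes these 4 tumours held the 4 highest levels. This was so for 9 of 9 thin filament genes, 5 of 8 thick filament genes, 0 of 2 developmental myosins, 10 of 10 Z-disc and scaffold genes, 7 of 7 genes of excitation-contraction coupling, 6 of 6 metabolic genes and 3 of 3 myogenic regulators. Over these 40 genes the lowest of the 4 tumours stood 1.4 to 14.8 times above the highest of the other 20. IgG2a replicate 3 was the highest tumour of all for 39 of the 45 genes. The 5 genes outside the pattern were Myh2, Myh3, Myh8, Myl2 and Myl3, which are a fast, 2 developmental and 2 slow myosin genes.

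Among thin filament genes, Acta1, the actin of adult skeletal muscle, had a lowest, median and highest level of 0.0368, 10.6 and 207 CPM in BRQ+PD-1 tumours, 0.51, 17.2 and 4469 CPM in BRQ+IgG2a tumours, 0.114, 18.9 and 4171 CPM in PD-1 tumours and 0.861, 59.1 and 14072 CPM in IgG2a tumours. The groups overlapped, and the spread of Acta1 within each group was wider than the distance between any 2 group medians. Per kilobase of exon, Acta1 led all 45 genes in each of the 4 muscle-rich tumours, at 2715 to 9162 CPM per kilobase. The fast troponin I gene Tnni2, whose product holds contraction off between calcium pulses, ran over 0.543, 2.2 and 13.8 CPM (lowest, median, highest) in BRQ+PD-1 tumours, 0.325, 3.69 and 394 CPM in BRQ+IgG2a tumours, 1.06, 3.33 and 342 CPM in PD-1 tumours and 0.758, 6.88 and 1397 CPM in IgG2a tumours. Its slow counterpart Tnni1 ran over 0.541, 0.927 and 1.36 CPM in BRQ+PD-1 tumours, 0.432, 1.17 and 45.9 CPM in BRQ+IgG2a tumours, 0.532, 1.22 and 26.4 CPM in PD-1 tumours and 0.777, 1.7 and 53.7 CPM in IgG2a tumours. Both genes overlapped between all groups, with the muscle-rich tumours at the top. The thin filament's other genes followed, with Tnnt3 (fast troponin T) at 869 to 3464 CPM in the 4 tumours and 0.582 to 111 CPM in the other 20. Tpm2 (beta-tropomyosin) was at 540 to 1781 CPM in the 4 and 1.75 to 88.6 CPM in the 20, and Neb (nebulin, the ruler of the thin filament) at 373 to 1100 CPM and 0.233 to 35.9 CPM. The slow genes Tnnt1 and Tnnc1 stayed lower, at 11.2 to 103 CPM and 11.2 to 57.1 CPM in the 4 tumours.

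Tnnc2, the troponin C of fast fibres, was close to absent, at 0 counts in 17 tumours and at most 6 counts (0.263 CPM) in IgG2a replicate 3, the tumour in which its partner Tnni2 reached 1397 CPM. In the GENCODE M21 annotation, 592 of its 800 exonic bases (74.0%) lie within exons of Ube2c on the opposite strand. The same annotation places 21.9% of the exonic bases of Atp2a1 in exons of Rabep2 and 10.3% of those of Cox6a2 in exons of Itgad. Overlaps of 2.0 to 4.6% were found for Myl2, Myl3, Mb and Myom1. The sources used here do not say how the authors' counting treated reads in such overlaps, and its part in the Tnnc2 level was not tested. Tnnc2 is therefore uncertain as a measure of fast fibres.

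The thick filament was carried by fast myosins. Myh4, the heavy chain of the fastest mouse fibres, had a lowest, median and highest level of 0, 3.59 and 196 CPM in BRQ+PD-1 tumours, 0, 20.9 and 2740 CPM in BRQ+IgG2a tumours, 0, 8.74 and 1831 CPM in PD-1 tumours and 0.172, 30.4 and 8826 CPM in IgG2a tumours. The slow heavy chain Myh7 was at 0, 0 and 0.0776 CPM in BRQ+PD-1 tumours, 0, 0 and 69.7 CPM in BRQ+IgG2a tumours, 0, 0.0187 and 103 CPM in PD-1 tumours and 0, 0.0188 and 219 CPM in IgG2a tumours. Myh7 exceeded 3 counts only in the 4 muscle-rich tumours, and IgG2a replicate 2 among them had 6 counts (0.207 CPM). The light chains of fast fibres Mylpf and Myl1 were at 394 to 1256 CPM and 380 to 1324 CPM in the 4 tumours, against at most 59.9 and 63.5 CPM in the other 20.

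Slow myosin genes divided the 4 tumours. Myl2 and Myl3, the light chains shared by slow fibres and the heart, gave 607 and 151 counts in BRQ+IgG2a replicate 4, 679 and 357 counts in PD-1 replicate 6, and 1719 and 1226 counts in IgG2a replicate 3. In IgG2a replicate 2 both were at 0 counts, beside 6 counts of Myh7 and 140958 counts of Myh4. A count of 0 there allows up to 0.104 CPM. Slow troponins were not absent from that tumour, with Tnni1 at 16.2 CPM and Tnnt1 at 11.2 CPM.

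Among 15 tumours with at least 100 counts over the 6 myosin heavy chain genes, a minimum set after their values were seen, the make-up differed beyond counting error. Myh4 took 52.8% (Wilson 95% interval 52.5 to 53.0) of these counts in BRQ+IgG2a replicate 4 and 55.4% (55.1 to 55.7) in PD-1 replicate 6, against 91.3% (91.2 to 91.5) in IgG2a replicate 2 and 74.6% (74.4 to 74.7) in IgG2a replicate 3. Myh1, the heavy chain of fast IIx fibres, took 31.7, 31.3, 7.12 and 20.2% in the same 4 tumours, and Myh2, of the more oxidative fast IIa fibres, took 11.7, 9.57, 0.148 and 3.34%. Myh7 took 1.34, 3.11, 0.00389 and 1.85%. Fast heavy chains therefore made up the bulk in each, with the faster form most dominant in IgG2a replicate 2.

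In the other 11 of these tumours the Myh4 share ran from 21.1% (IgG2a replicate 6) to 96.7% (BRQ+IgG2a replicate 3), wider at both ends than in the 4. Myh4 took 80.4% of heavy chain counts in BRQ+PD-1 replicate 2 and 80.2% in BRQ+IgG2a replicate 1. In PD-1 replicate 2 it took 28.6% and Myh1 took 48.9%, and in IgG2a replicate 6 Myh4 took 21.1%, Myh1 38.2% and Myh2 35%. Computed per kilobase of exon, the Myh4 share was 55.2% in BRQ+IgG2a replicate 4, 57.8% in PD-1 replicate 6, 92.1% in IgG2a replicate 2 and 76.2% in IgG2a replicate 3.

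**Figure D2:**
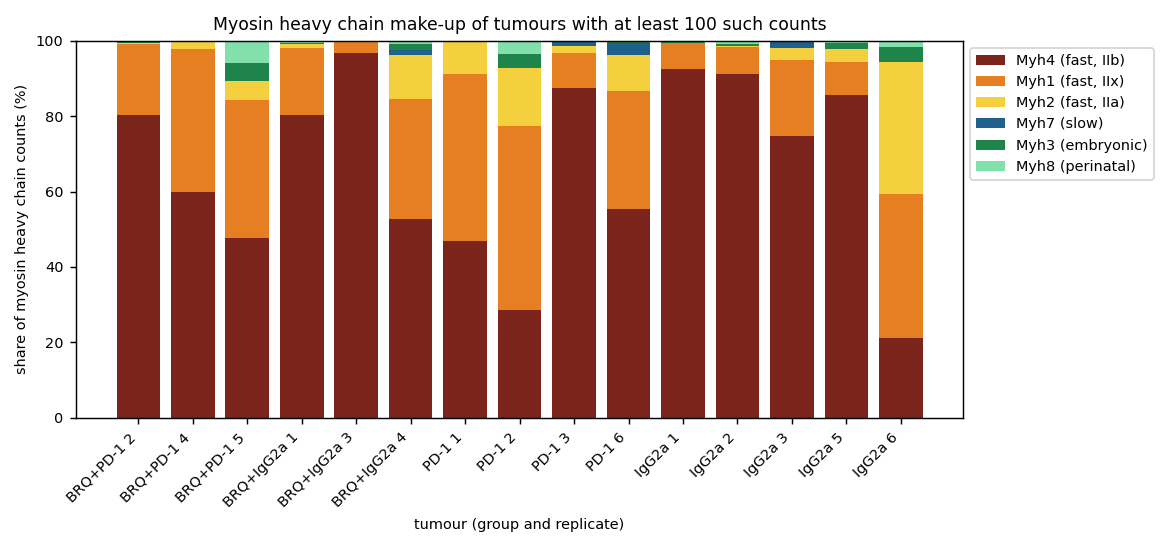
Share of myosin heavy chain counts (%, y axis) taken by 6 genes in the 15 tumours with at least 100 such counts (x axis, by group and replicate). Fast forms fill most of every bar, slow Myh7 is widest in PD-1 replicate 6 (3.11%), and the developmental forms are widest in BRQ+PD-1 replicate 5 (10.8%, from 31 of 288 counts).

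A fast share was taken as the counts of Myh1, Myh2, Myh4, Tnnt3, Tnni2, Tnnc2 and Mylpf over these plus the slow genes Myh7, Tnnt1, Tnni1, Tnnc1, Myl2 and Myl3. It was 96.9% in BRQ+IgG2a replicate 4, 95.3% in PD-1 replicate 6, 99.5% in IgG2a replicate 2 and 96.9% in IgG2a replicate 3. The lowest, median and highest shares were 35.7, 75.2 and 99.0% in BRQ+PD-1 tumours, 42.3, 82 and 98.9% in BRQ+IgG2a tumours, 61.0, 90.5 and 97.1% in PD-1 tumours and 57.5, 94.1 and 99.5% in IgG2a tumours. All groups overlapped. Low shares belonged to tumours with few such counts, such as BRQ+PD-1 replicate 1 with 30 fast and 54 slow counts (Wilson 95% interval 26.3 to 46.4%). Over all 24 tumours Tnni1 and Tnnc1 never fell below 0.432 and 0.586 CPM, while Myh4 was at 0 in 5.

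Developmental myosins were highest in the 4 muscle-rich tumours and PD-1 replicate 2, but among these 5 they did not follow the order of Acta1. Myh3, the embryonic heavy chain, had a lowest, median and highest level of 0, 0.0958 and 1.18 CPM in BRQ+PD-1 tumours, 0, 0.151 and 78.2 CPM in BRQ+IgG2a tumours, 0, 0.0609 and 13.6 CPM in PD-1 tumours and 0.0707, 0.518 and 29.3 CPM in IgG2a tumours. The groups overlapped, and the highest tumour was BRQ+IgG2a replicate 4. IgG2a replicate 3, with the most muscle RNA, had 3.07 CPM, below the 6.97 CPM of PD-1 replicate 2. Per 1000 Acta1 counts, Myh3 gave 17.5 counts in BRQ+IgG2a replicate 4, 3.26 in PD-1 replicate 6, 6.44 in IgG2a replicate 2 and 0.218 in IgG2a replicate 3. PD-1 replicate 2, with 5766 Acta1 counts, gave 32.3. Myh8, the perinatal heavy chain, was at 50.2 CPM in BRQ+IgG2a replicate 4, 5.36 CPM in PD-1 replicate 6, 45.2 CPM in IgG2a replicate 2 and 6.53 CPM in IgG2a replicate 3.

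**Figure D3:**
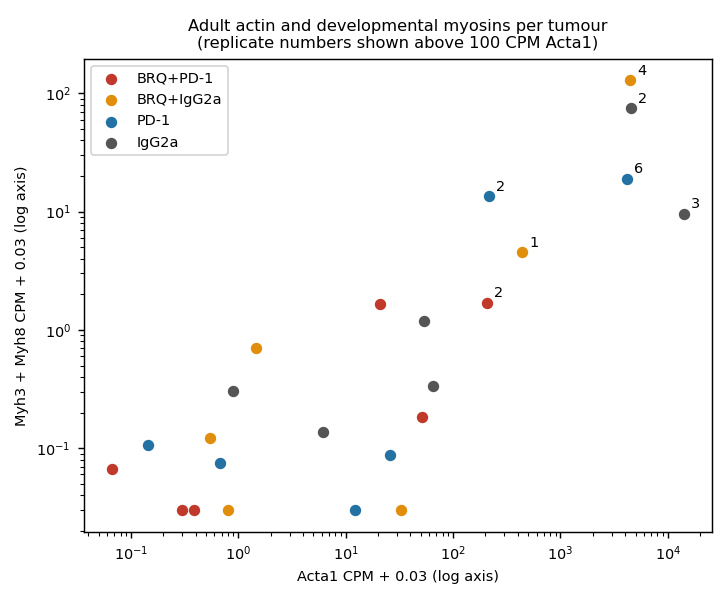
Summed Myh3 and Myh8 level (y axis) against Acta1 level (x axis), both in CPM + 0.03 on log axes, with 1 point per tumour coloured by group. IgG2a replicate 3 lies furthest right (Acta1 14072 CPM) but below BRQ+IgG2a replicate 4, IgG2a replicate 2, PD-1 replicate 6 and PD-1 replicate 2 on the y axis.

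Other genes of new or denervated fibres, which are not among the 45, also divided the muscle-rich tumours. Per 1000 Acta1 counts, the fusion protein gene Mymk gave 1.6 counts in BRQ+IgG2a replicate 4, 0.364 in PD-1 replicate 6, 1.23 in IgG2a replicate 2 and 0.0374 in IgG2a replicate 3. Chrng, the fetal subunit of the acetylcholine receptor, gave 0.936, 0.205, 0.993 and 0.0249 in the same order of tumours. Myl4, a light chain of embryonic muscle and atrium, gave 10.9, 1.52, 8.01 and 0.293, and Actc1, the actin of heart and fetal muscle, gave 6.27, 1.03, 6.51 and 0.445. BRQ+IgG2a replicate 4 and IgG2a replicate 2 were thus high in each of these 4 genes, chosen after values were seen, and IgG2a replicate 3 lowest in each. Per 1000 Acta1 counts, Mymx and Myf5 were also lowest in IgG2a replicate 3, but Myf6, Chrne and Calcr were not. Myf6 gave 2.12, 6.96, 4.91 and 2.61 in the same order of tumours. Calcr, at 1 to 9 counts, gave 0.0315, 0.0839, 0.00758 and 0.0249. These are values of 4 single tumours and no treatment comparison.

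The myogenic regulators were scarce. Myod1, which commits cells to muscle, had a lowest, median and highest level of 0, 0 and 0.209 CPM in BRQ+PD-1 tumours, 0, 0.0224 and 6.01 CPM in BRQ+IgG2a tumours, 0, 0.0292 and 6.26 CPM in PD-1 tumours and 0, 0.0717 and 8.84 CPM in IgG2a tumours. Myog, which drives terminal differentiation, was at 0, 0.0193 and 0.277 CPM in BRQ+PD-1 tumours, 0, 0 and 8.26 CPM in BRQ+IgG2a tumours, 0, 0 and 6.03 CPM in PD-1 tumours and 0, 0.0923 and 10.01 CPM in IgG2a tumours. Pax7, the satellite cell marker, was at 0, 0 and 0.116 CPM in BRQ+PD-1 tumours, 0, 0 and 1.27 CPM in BRQ+IgG2a tumours, 0, 0 and 0.778 CPM in PD-1 tumours and 0, 0 and 0.964 CPM in IgG2a tumours. In each gene the groups overlapped at or near 0 and the 4 muscle-rich tumours held the top places, with 20 to 36 counts of Pax7 each. Myog per 1000 Acta1 counts was 1.85 in BRQ+IgG2a replicate 4, 1.44 in PD-1 replicate 6, 2.2 in IgG2a replicate 2 and 0.261 in IgG2a replicate 3.

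The 10 Z-disc and scaffold genes all followed the 4 tumours. Des (desmin, the intermediate filament of muscle) was at 1051 to 2272 CPM in the 4 tumours and 0.815 to 116 CPM in the other 20, and Ttn (titin, the spring of the sarcomere) at 539 to 1647 CPM and 0.349 to 68.7 CPM. Actn3, the alpha-actinin of fast fibres, was at 676 to 2369 CPM in the 4 and 0.479 to 71.8 CPM in the 20. The remaining members, Actn2, Myoz1, Myot, Tcap, Ldb3, Myom1 and Myom2, reached 246 to 441 CPM in IgG2a replicate 3, and at most 5.9 to 18.6 CPM in the other 20 tumours.

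Of the genes of excitation-contraction coupling, Atp2a1, the calcium pump of fast fibres, was the most abundant in each of the 4 muscle-rich tumours, by counts and per kilobase of exon, at 1274 to 5468 CPM in the 4 tumours and 0.0388 to 144 CPM in the other 20. Ryr1, the calcium release channel, was at 431 to 1222 CPM and 0.232 to 29.2 CPM, a gap of 14.8 times between the lowest of the 4 and the highest of the 20. Casq1 (the calcium store protein), Cacna1s (the voltage sensor) and Trdn (triadin) were at 55.3 to 430 CPM in the 4. Pvalb, the calcium buffer of the fastest fibres, was at 94.1 to 651 CPM, and per 1000 Acta1 counts it gave 78.6 in BRQ+IgG2a replicate 4, 22.6 in PD-1 replicate 6, 121 in IgG2a replicate 2 and 46.3 in IgG2a replicate 3.

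Among metabolic genes, Ckm (muscle creatine kinase) had a lowest, median and highest level of 0, 1.62 and 35.3 CPM in BRQ+PD-1 tumours, 0, 4.8 and 750 CPM in BRQ+IgG2a tumours, 0, 3.25 and 533 CPM in PD-1 tumours and 0.138, 7.72 and 2404 CPM in IgG2a tumours. The groups overlapped, with 4 tumours at 0. Eno3, the muscle enolase, behaved differently in the tumours with little muscle RNA, where it stayed between 24.3 and 81.4 CPM, against 176 to 672 CPM in the 4 muscle-rich tumours. Its group medians were 38.3 CPM in BRQ+PD-1, 38.8 CPM in BRQ+IgG2a, 37.0 CPM in PD-1 and 39.5 CPM in IgG2a tumours. Pgam2 (muscle phosphoglycerate mutase) was at 59.8 to 222 CPM in the 4 and 0.603 to 12.6 CPM in the 20. Mb (myoglobin), Ampd1 (muscle AMP deaminase) and Cox6a2 (a cytochrome oxidase subunit of heart and muscle) were at 13.3 to 171 CPM in the 4 and at most 2.44 to 7.87 CPM in the 20. Of all 45 genes, 20 had counts in every tumour and 25 were at 0 in at least 1.

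**Figure D4:**
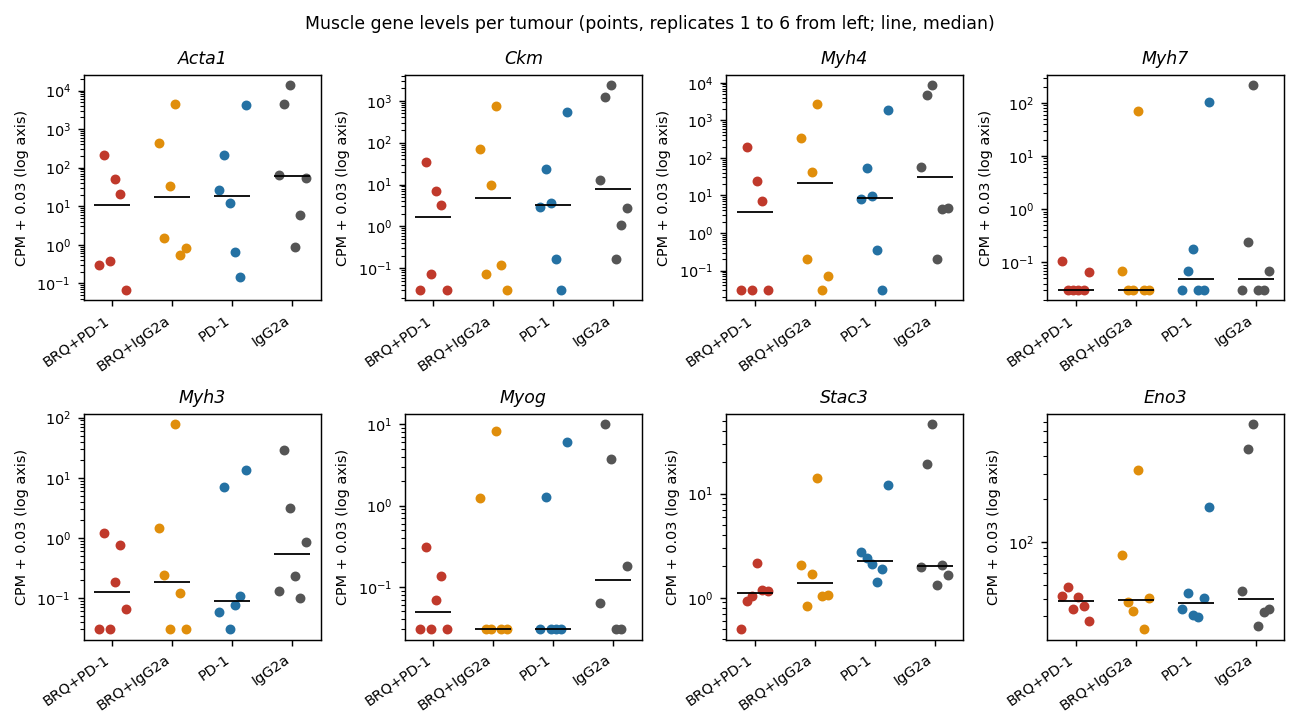
Level of 8 genes (CPM + 0.03, log axes) in each tumour, by treatment group, with the median of 6 as a line. In each panel the points of all groups overlap. The highest points are the muscle-rich tumours, except that in the Myh3 panel PD-1 replicate 2 lies above IgG2a replicate 3. BRQ+PD-1 has no muscle-rich tumour.

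Treatment was then tested with edgeR's quasi-likelihood test over all genes, with Benjamini-Hochberg adjustment and calls at an adjusted p under 0.05. Of the 45 genes, 40 passed the filter on low counts, and Tnnc2, Myh7, Myl2, Myl3 and Pax7 did not. In BRQ+PD-1 against IgG2a tumours 1 of these 40 genes was called, Stac3, which was lower, where 1.43% of all 16029 genes tested were called lower and 3.91% either way. All 40 had negative log2 fold changes, from -7.63 to -2.49 with a median of -5.46, against a median of 0.009 over all genes tested, and 37 (92.5%) had an unadjusted p under 0.05, against 23.3% of all genes tested. Their adjusted p ran from 0.0492 to 0.263. Acta1 had a log2 fold change of -6.14 ± 2.86 (SE, adjusted p 0.201) and Ckm one of -6.37 ± 2.73 (adjusted p 0.164) in the same edgeR fit. DESeq2 called 25 of the 40 lower in this comparison, where it called 9.61% of all genes either way, and limma voom with quality weights called 0 of the 40 and 9.01% of all genes. Leaving out 1 tumour at a time moved the median of the 40 between -6.86 (without BRQ+PD-1 replicate 2) and -4.11 (without IgG2a replicate 3).

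The 40 genes varied far more between tumours of a group than other genes. Their median biological coefficient of variation was 2.14, against 0.21 over all genes tested, and the median SE of their log2 fold change in BRQ+PD-1 against IgG2a tumours was 2.27, against 0.16. A fitted fold change of this set compares group means that the muscle-rich tumours fill: BRQ+PD-1 holds 0 of them, BRQ+IgG2a 1, PD-1 1 and IgG2a 2.

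Stac3, an adaptor that couples the voltage sensor to the calcium release channel, had a lowest, median and highest level of 0.466, 1.08 and 2.13 CPM in BRQ+PD-1 tumours, 0.799, 1.35 and 14.1 CPM in BRQ+IgG2a tumours, 1.37, 2.22 and 12 CPM in PD-1 tumours and 1.31, 1.98 and 46.5 CPM in IgG2a tumours. Of the 6 BRQ+PD-1 tumours, 5 lay below the lowest IgG2a tumour and 5 below the lowest PD-1 tumour, and replicate 4 overlapped with both groups. The log2 fold change in BRQ+PD-1 against IgG2a tumours was -3.47 ± 0.98 (SE, edgeR, adjusted p 0.0492). Without the 4 muscle-rich libraries, edgeR gave -0.87 (adjusted p 0.113) in BRQ+PD-1 against PD-1 tumours and -0.60 (adjusted p 0.369) in BRQ+PD-1 against IgG2a tumours. In the latter comparison, leaving out IgG2a replicate 3 alone gave -2.20 (adjusted p 0.186). Stac3 was called there in 3 of 12 fits that left out 1 tumour. Those 3 were the fits without IgG2a replicate 4, 5 or 6, and the call was lost without IgG2a replicate 1, 2 or 3 or any of the 6 BRQ+PD-1 tumours (adjusted p 0.0524 to 0.186). An exact two-sided permutation test over all 924 splits of 12 tumours, on the mean log2(CPM + 0.5), gave a difference of -1.76 with p = 0.0173 in BRQ+PD-1 against IgG2a tumours and -1.08 with p = 0.00866 in BRQ+PD-1 against PD-1 tumours. Both became 0.0866 after Benjamini-Hochberg adjustment over the 10 exact tests run on Acta1 and Stac3. These tests were chosen after values of the same tumours were seen, and the adjustment does not cover the choice of these genes. The exact p for Acta1 in BRQ+PD-1 against IgG2a tumours was 0.156, at a difference of -4.09.

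In the other comparisons 0 of the 40 genes were called by edgeR, DESeq2 or limma voom. DESeq2 called 5.54% of all genes in BRQ+IgG2a against IgG2a, 0.168% in PD-1 against IgG2a and 8.77% in BRQ+PD-1 against PD-1 tumours. It called 0.025% in BRQ+PD-1 against BRQ+IgG2a tumours and 0.0686% for the interaction. Limma voom called 13.1, 0.0374, 13.6, 3.82 and 1.67% of all genes in the same order of comparisons. In BRQ+IgG2a against IgG2a tumours edgeR called 3.46% of all genes, and 0 of the 40 had an unadjusted p under 0.05, against 14.8% of all genes. The median log2 fold change of the 40 was -1.57, with 37 negative. It was -4.74 without BRQ+IgG2a replicate 4 and -0.27 without IgG2a replicate 3. In PD-1 against IgG2a tumours edgeR called 0.0187% of all genes, and 1 of the 40 (Eno3) had an unadjusted p under 0.05, against 6.46% of all genes. The median was -2.17, with 40 negative, and it was -5.53 without PD-1 replicate 6 and -0.72 without IgG2a replicate 3. Both comparisons share the IgG2a tumours, and with them the 2 muscle-rich controls.

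In BRQ+PD-1 against PD-1 tumours edgeR called 5.04% of all genes, and 4 of the 40 had an unadjusted p under 0.05, against 21.4% of all genes. The median was -3.40 and became -0.25 without PD-1 replicate 6. In BRQ+PD-1 against BRQ+IgG2a tumours edgeR called 0% of all genes, and 10 of the 40 (25%) had an unadjusted p under 0.05, against 7.29% of all genes. The median was -4.05 and became -0.82 without BRQ+IgG2a replicate 4. For the interaction of BRQ and anti-PD1 edgeR called 0% of all genes, and 1 of the 40 (Myh2) had an unadjusted p under 0.05, against 7.62% of all genes. Its median was -1.70 and changed sign with 1 library, to 1.49 without PD-1 replicate 6 and 1.27 without BRQ+IgG2a replicate 4. It was -3.38 without BRQ+PD-1 replicate 2 and -3.14 without IgG2a replicate 3.

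Leaving out the 4 muscle-rich libraries, 38 of the 45 genes were tested and edgeR called 0 in any comparison. Of all 16179 genes tested it then called 2.5% in BRQ+PD-1 against IgG2a, 4.06% in BRQ+IgG2a against IgG2a, 0.0124% in PD-1 against IgG2a, 3.1% in BRQ+PD-1 against PD-1, 0% in BRQ+PD-1 against BRQ+IgG2a and 0.00618% for the interaction. These libraries were left out for being highest in the same genes, and 0 came from BRQ+PD-1, 1 from BRQ+IgG2a, 1 from PD-1 and 2 from IgG2a. The step therefore lowers the IgG2a mean most by its construction, and the medians that follow are a description of the remaining 20 tumours. In BRQ+PD-1 against IgG2a tumours the median log2 fold change was 0.42, with 31 of 38 positive. It was 1.35 for BRQ+IgG2a against IgG2a tumours, with 35 positive, and 0.63 for PD-1 against IgG2a tumours, with 36 positive. The median for BRQ+PD-1 against PD-1 tumours was -0.16, with 21 of 38 negative. For BRQ+PD-1 against BRQ+IgG2a tumours it was -0.80 and for the interaction -1.62, with all 38 negative in each. Of these 38 genes, edgeR gave 2 an unadjusted p under 0.05 in BRQ+PD-1 against PD-1 tumours and 0 in each other comparison. The 2 were Stac3 (-0.87, adjusted p 0.113) and Myh2 (-4.06, adjusted p 0.235). The share of all 16179 genes at this unadjusted level is not given here, so the count stands without a background.

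**Figure D5:**
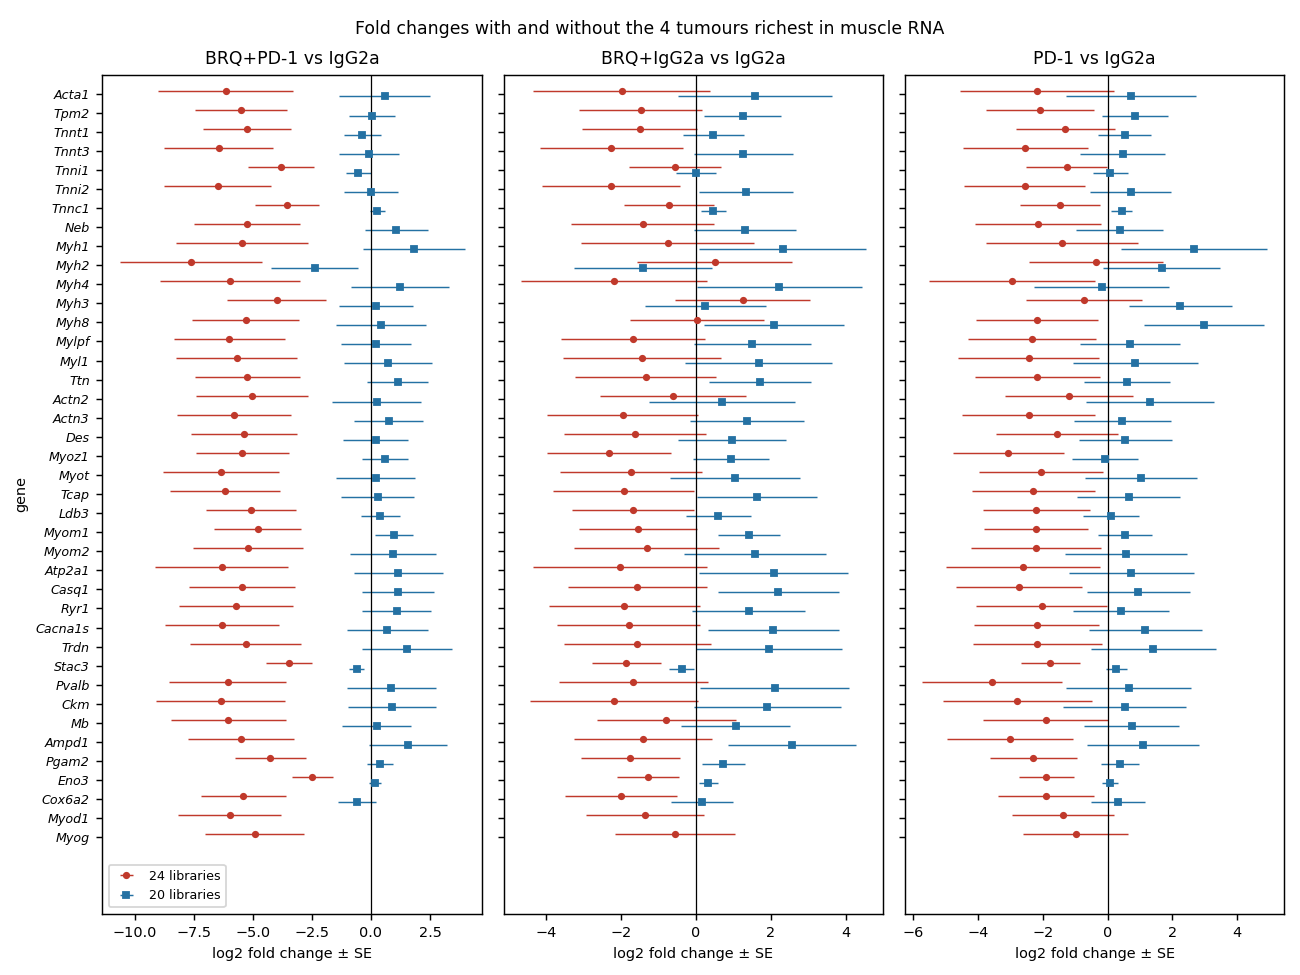
Log2 fold change ± SE of the 40 genes tested (y axis) in 3 comparisons with IgG2a, from all 24 libraries (circles) and without the 4 muscle-rich ones (squares, 38 genes). In BRQ+PD-1 against IgG2a the circles lie between -7.63 and -2.49 and most squares lie above 0.

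Wider lists of muscle genes behaved like the 45. The 4 muscle-rich tumours held the 4 highest levels of 36 of 37 other sarcomere and Z-disc genes, 18 of 22 other genes of excitation-contraction coupling and 17 of 19 other genes of muscle energy metabolism. In BRQ+PD-1 against IgG2a tumours, edgeR called 0 of 35, 1 of 20 and 1 of 18 of their tested members, where it called 3.91% of all genes. The medians of the 3 lists were -5.06, -3.30 and -3.30. The called genes were Chrnb1, a subunit of the acetylcholine receptor (-1.0 ± 0.27, adjusted p 0.0365), and Cox7a1, a cytochrome oxidase subunit of heart and muscle (-2.97 ± 0.84, adjusted p 0.0478). Cox7a1 had medians of 0.44 CPM in BRQ+PD-1, 0.538 CPM in BRQ+IgG2a, 0.71 CPM in PD-1 and 0.978 CPM in IgG2a tumours. Chrnb1 was also lower in BRQ+PD-1 against PD-1 tumours (-0.91 ± 0.27, adjusted p 0.0456, edgeR), and it was present in all tumours, at 5.98 to 16.0 CPM in BRQ+PD-1, 6.59 to 19.7 CPM in BRQ+IgG2a, 11.7 to 29.9 CPM in PD-1 and 13.6 to 35.4 CPM in IgG2a tumours. Without the 4 muscle-rich libraries, an alternative chosen after the calls were seen, edgeR gave Cox7a1 -0.79 (adjusted p 0.44) and Chrnb1 -0.64 (adjusted p 0.108) in BRQ+PD-1 against IgG2a tumours, and Chrnb1 -0.77 (adjusted p 0.0343) in BRQ+PD-1 against PD-1 tumours. Of 19 myogenic and regeneration genes, 6 had the 4 tumours on top, and 0 of 14 tested were called.

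Markers of other tissues were highest in the muscle-rich tumours only in part. The 4 tumours were the highest in 4 of 7 adipocyte markers, whose sum was 0 to 12.3 CPM in BRQ+PD-1, 0 to 20.7 CPM in BRQ+IgG2a, 0.266 to 91.7 CPM in PD-1 and 0.0344 to 31.7 CPM in IgG2a tumours, with the maxima of the last 3 groups in muscle-rich tumours. The summed Schwann cell markers were high in 2 of the 4, PD-1 replicate 6 (76.8 CPM) and IgG2a replicate 3 (64.8 CPM), and in BRQ+PD-1 replicate 4 (77.8 CPM), against at most 29.9 CPM in all others. The summed endothelial markers were highest in the same 2 of the 4, at 286 and 281 CPM, against at most 248 CPM in all others. All 4 muscle-rich tumours together were on top in 0 of 7 Schwann cell markers, 1 of 8 keratinocyte (Trp63), 1 of 4 endothelial, 0 of 4 fibroblast and 1 of 6 cardiac markers. The summed keratinocyte markers were at 5.39 to 6.09 CPM in the 4 and at most 2.98 CPM in the other 20, with Trp63 at 2.61 to 4.53 CPM in the 4 and Krt14, Krtdap and Dsg3 at 0 in the 4. Of the cardiac markers 4 were under 1 CPM in every tumour, and the heart gene Nppa was at 0 or at most 0.117 CPM. Of 8 smooth muscle markers, 1 had the 4 on top and their sum ran over 105 to 310 CPM in BRQ+PD-1, 172 to 525 CPM in BRQ+IgG2a, 173 to 355 CPM in PD-1 and 314 to 613 CPM in IgG2a tumours. Of 7 smooth muscle markers tested, edgeR called only 2 in BRQ+PD-1 against IgG2a tumours, both lower, where it called 1.43% of all genes lower. These were the smooth muscle actins Actg2 (-2.47 ± 0.59, adjusted p 0.022) and Acta2 (-1.28 ± 0.36, adjusted p 0.049). Their medians in BRQ+PD-1, BRQ+IgG2a, PD-1 and IgG2a tumours were 1.75, 2.21, 3.67 and 5.18 CPM for Actg2 and 141, 230, 155 and 304 CPM for Acta2. The leukocyte marker Ptprc was higher in BRQ+PD-1 against IgG2a tumours (1.02 ± 0.18, adjusted p 0.00335) and in BRQ+IgG2a against IgG2a tumours (1.01 ± 0.18, adjusted p 0.00265), with medians of 134, 131, 87.3 and 61 CPM in the same order of groups. Mitf was higher in BRQ+PD-1 against PD-1 tumours (0.97 ± 0.28, adjusted p 0.0474), with medians of 23.4 CPM in BRQ+PD-1 and 14.1 CPM in PD-1 tumours. Without the 4 muscle-rich libraries the same edgeR test gave Actg2 -1.70 (adjusted p 0.0561), Acta2 -0.92 (adjusted p 0.241) and Ptprc 1.07 (adjusted p 0.0069) in BRQ+PD-1 against IgG2a tumours, Ptprc 1.09 (adjusted p 0.00383) in BRQ+IgG2a against IgG2a tumours and Mitf 1.0 (adjusted p 0.0983) in BRQ+PD-1 against PD-1 tumours. The part of these tissues in the muscle values was not tested.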

How the data were processed

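Each of 24 tumours gave 1 library. RNA was isolated with a column kit and the libraries were made and sequenced by Novogene, per the labels' protocols. The submitters' processing notes name GRCm39 as the build and list HISAT2 2.2.1, StringTie 2.2.1, Trim Galore 0.6.7, MultiQC 1.11 and FastQC 0.11.8. The sources used here do not give the program that counted reads, its annotation or its strand setting. The deposited table holds whole-number counts per Ensembl gene, not normalized, and all values were computed from it. The deposited FPKM and TPM tables, held here only in part, were not used. Symbols and exon lengths came from GENCODE M21, an older build.

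Genes were tested with edgeR 4.0.16 (R 4.3.3; TMM, filterByExpr, robust quasi-likelihood fit, group as the only term, 20 residual degrees of freedom) over 16029 genes, with DESeq2 1.42.0 and limma 3.58.1 as alternatives. The fit was tested on simulated data. CPM is counts per 1000000 counts of the library.

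The 45 genes and the 13 lists (152 genes) were chosen with earlier results of these data known. Values per group are given for Acta1, Ckm, Myh4, Myh7, Myh3, Tnni2, Tnni1, Stac3, Myod1, Myog and Pax7 and any called member; from the lists, up to 4 called genes each by adjusted p, or else the 2 most abundant, each only where a result turned on it. Chrng, Mymk, Myl4, Actc1, Mymx, Myf5, Myf6, Chrne, Calcr, Nppa, Krt14, Krtdap and Dsg3, the melanocytic and neural crest markers other than Mitf, the motifs, the 100-count minimum and the exact tests were chosen after values were seen.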

Additional observations from a re-analysis of the deposited data

Results flagged for a closer look

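Single tumours stood far from the other 5 of their group, by Dixon's ratio on the log2 scale (gap to the nearest tumour over the range, above the 95% critical value), in 14 of 52 groups of values checked (36 of 52 on the linear scale), and chance flags about 1 in 20 groups. BRQ+IgG2a replicate 4 was far above its group in Myh7 (69.7 CPM), Myh3 (78.2 CPM), Tnni1 (45.9 CPM), Stac3 (14.1 CPM), Myod1 (6.01 CPM) and Pax7 (1.27 CPM). PD-1 replicate 6 was far above its group in Myh7 (103 CPM), Stac3 (12 CPM), Myod1 (6.26 CPM) and Pax7 (0.778 CPM). IgG2a replicate 3 was far above its group in Myh7 (219 CPM), since the other muscle-rich control, replicate 2, had almost none.

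BRQ+PD-1 replicate 5 had 0.209 CPM of Myod1 and BRQ+PD-1 replicate 4 had 0.116 CPM of Pax7, where most of the group was at 0, and the Pax7 value rests on 3 counts. The fast share of IgG2a replicate 4 was 57.5%, far below the others of its group, from 111 fast and 82 slow counts.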

How the results depend on the processing

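The count of called genes among the 45 in BRQ+PD-1 against IgG2a tumours was 1, where 3.91% of all genes were called, and moved with the method. It was 25 with DESeq2 (1 of the 40 adjusted p-values was NA), where 9.61% of all genes were called. It was 0 with limma voom (9.01% of all genes) and 0 with no expression filter (0.901%). It was 0 without the 4 muscle-rich libraries (2.5%) and 1 with RLE factors (3.9%). Leaving out 1 tumour at a time gave 0 to 1. The Stac3 adjusted p ran from 0.0026 (DESeq2) to 0.369 (without the 4 libraries), and its log2 fold change from -3.72 to -0.60. All other comparisons kept 0 calls among the 45 under every alternative run. With the replicate number as a block 0 of the 40 genes were called in BRQ+PD-1 against IgG2a tumours, against 1.78% of all genes. The same-numbered tumours did not deviate together, with r from -0.64 to 0.44 over 36 pairs and 15 of them over 0.1. Only 1 of 24 tumours was closest to its own number. The numbers are therefore not taken as a pairing. With 1 tumour left out, the median fast share ran from 60.4 to 90.1% in BRQ+PD-1, 67.5 to 96.5% in BRQ+IgG2a, 89.2 to 91.9% in PD-1 and 91.3 to 96.9% in IgG2a tumours. The median share of counts taken by the 45 genes ran from 0.00605 to 0.0158%, 0.00718 to 0.0242%, 0.0115 to 0.0157% and 0.0233 to 0.0367% in the same order, a move of over 1.5 times in the BRQ groups. The cause of these shifts was not tested. Genes at a few counts per tumour, such as Pax7, Tnnc2 and Myh7 outside the muscle-rich tumours, were at or near the limit of depth.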
